A study of Mus musculus with 6 samples.

Results

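Wnt ligands, their receptors and their secreted antagonists were examined in hippocampal RNA of ovariectomised mice that ate a control diet or a diet with royal jelly. The members were the protein-coding genes of the deposited count table whose symbols begin with Wnt, Fzd, Sfrp or Dkk and a digit, together with Lrp5, Lrp6, Axin1, Axin2, Dvl1, Dvl2, Dvl3, Lef1 and the Tcf7 genes. This gave 46 genes among 18110 protein-coding features and 32067 features in all: 19 ligands, 10 Frizzled receptors, 2 LRP coreceptors, 6 secreted antagonists, 5 genes of the Dishevelled and Axin scaffolds and 4 TCF/LEF factors. The symbol pattern also matched 1 noncoding gene, Fzd10os, which was left out. Dkk1 is not analysed here.

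All 6 mice were wild-type C57BL/6J females whose ovaries had been removed on both sides, which removes most circulating estrogen. From 8 weeks of age the OVX mice (3 libraries) ate a control diet. The OVX+RJ mice (3 libraries) had free access to a diet with 1% royal jelly, the glandular secretion that worker honeybees feed to larvae. Hippocampus was taken at 17 weeks, and poly(A) RNA was sequenced. Sham-operated mice named in the protocol are not analysed here, so no value below can be set against mice with ovaries. Each library is described in the labels as a biological replicate, without naming cages, litters or collection days.

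Wnt proteins are secreted lipid-modified ligands that bind Frizzled receptors, and with LRP5 or LRP6 they recruit Dishevelled and Axin to the membrane. This stops the destruction of beta-catenin, which then enters the nucleus and works with TCF/LEF factors to switch on target genes, among them the feedback inhibitor Axin2. SFRP proteins bind Wnts outside the cell, and DKK1 and DKK2 block the LRP coreceptors. In the adult hippocampus Wnt signalling is known for its parts in the birth of dentate granule neurons, in synapse assembly and, through Wnt7a and Wnt7b, in the upkeep of the blood-brain barrier.

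The libraries held between 34718596 and 58163785 counts, and levels are given as CPM, a gene's share of its library's counts scaled to a common total. OVX+RJ 1 stood apart: in log2 CPM it correlated with the remaining libraries at a mean of 0.983, where each of those reached 0.986 or 0.987, and the first principal component, with 28.7% of the variance, separated it from them. All 10 markers listed for hippocampal neurons were present in every library, with a summed level of 6143 to 6668 CPM. The list holds genes of neurons in general, such as Snap25 and Syt1, so it was no check of the tissue label. Endothelial markers had a lower summed level in OVX+RJ, 256 to 292 CPM against 312 to 326 CPM, and 11 of 13 had a negative log2 fold change. Pericyte and smooth muscle markers behaved alike, at 171 to 182 CPM against 192 to 201 CPM with 8 of 10 negative, and none of the 23 genes of these lists was at 0 in a library. Choroid plexus markers ranged from 130 to 208 CPM in OVX and from 151 to 238 CPM in OVX+RJ, and their defining gene Otx2 was at 0 in OVX 1. Enpp2, at 98.2 to 177 CPM, makes up most of that sum. Log2 fold changes were positive at 8 of the 11 tested choroid plexus markers. In edgeR's test 3 were higher at an unadjusted p under 0.05: Clic6 (1.61), Ttr (1.32) and F5 (0.72). At that p, 4 endothelial, 3 dentate granule cell and 2 pericyte and smooth muscle markers were lower, and 0 of these lists were higher. Of all tested genes, 2.14% were higher and 1.91% lower at that p. Thalamus and habenula border the hippocampus and express TCF/LEF genes. Their markers ranged from 161 to 167 CPM in OVX and from 144 to 187 CPM in OVX+RJ. Of these, Gbx2 had only 3 counts in OVX+RJ 1 and 0 in each other library. Dentate granule cell markers ranged from 727 to 971 CPM in OVX and from 636 to 938 CPM in OVX+RJ, and 12 of 13 had a negative log2 fold change. In whole tissue, fewer cells of a type and less RNA per cell cannot be told apart.

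Upstream sequences were read from RefSeq for GRCm38.p6, which is not the build of the counts, as the 250 bases before an annotated start. A window was found for 32 of the 46 members. The first pair below is shown because Wnt10b and Wnt1 are neighbours in the genome and both had their highest level in the same royal jelly library. The windows of Wnt11 and Wnt5b are shown because they were the 2 members whose windows held a TCF/LEF word, in capitals: CTTTGAT or CTTTGAA on either strand, which 7.48% of all 32851 windows hold.
Wnt10b (chr15:98778151-98778400, minus strand): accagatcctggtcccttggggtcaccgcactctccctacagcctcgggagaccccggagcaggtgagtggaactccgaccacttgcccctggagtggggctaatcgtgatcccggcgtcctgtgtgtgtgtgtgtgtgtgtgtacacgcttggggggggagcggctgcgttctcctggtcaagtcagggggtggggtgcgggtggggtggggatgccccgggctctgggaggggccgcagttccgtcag
Wnt1 (chr15:98789607-98789856, plus strand): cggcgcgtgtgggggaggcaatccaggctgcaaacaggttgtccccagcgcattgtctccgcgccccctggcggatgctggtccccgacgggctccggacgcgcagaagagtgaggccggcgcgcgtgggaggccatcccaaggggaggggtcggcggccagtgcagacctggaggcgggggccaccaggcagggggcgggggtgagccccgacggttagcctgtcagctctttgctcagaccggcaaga
Wnt11 (chr7:98834862-98835111, plus strand): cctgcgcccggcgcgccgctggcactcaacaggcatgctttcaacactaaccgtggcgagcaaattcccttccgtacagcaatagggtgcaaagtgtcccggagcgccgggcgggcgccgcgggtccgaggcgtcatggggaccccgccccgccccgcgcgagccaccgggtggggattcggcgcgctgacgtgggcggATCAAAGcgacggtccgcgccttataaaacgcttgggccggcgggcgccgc
Wnt5b (chr6:119449387-119449636, minus strand): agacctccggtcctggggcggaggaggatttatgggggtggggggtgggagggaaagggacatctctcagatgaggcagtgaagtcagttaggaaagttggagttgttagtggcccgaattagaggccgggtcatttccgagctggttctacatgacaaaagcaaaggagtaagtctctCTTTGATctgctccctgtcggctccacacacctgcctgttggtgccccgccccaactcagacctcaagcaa
The word starts 51 bases before the start of Wnt11 and 71 bases before that of Wnt5b. The window of Axin2 held no such word. The cyclic AMP word TGACGTCA was in 0 of 40 member windows and in 1.55% of all windows. The AP-1 word TGACTCA, searched on both strands, was in a window of Dvl2 and in another start's window of Wnt5b, and in 4.46% of all windows. The EGR word GCGTGGGCG, also on both strands, was in the Wnt6 window and in 0.536% of all windows. No match of one word overlapped a match of another, and a match is a description of sequence and not a measured binding site.

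Levels were compared between genes as CPM per kilobase of exon, averaged over the 6 libraries. Dkk3 was far above the other members, at 144 CPM per kb, with a range of 132 to 155 over libraries. On the plain CPM scale it made up 46.6% to 51.8% of the members' summed counts. Dkk3 encodes a divergent Dickkopf protein that is abundant in hippocampal neurons and is not a typical LRP blocker. Among the ligands Wnt7b (7.005 CPM per kb) and Wnt7a (4.05) stood first and second, each with a range over libraries above that of the next gene. Wnt4 (2.11), Wnt2 (1.71), Wnt5a (1.47) and Wnt9a (1.38) followed, with neighbouring ranges that overlapped. Wnt10a, Wnt5b, Wnt3 and Wnt2b lay between 0.553 and 0.716 CPM per kb, below the whole range of Wnt9a.

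Fzd3, a receptor used in axon guidance and planar polarity, led the Frizzled genes at 7.09 CPM per kb and was above the range of Fzd1, the next. Fzd1, Fzd2, Fzd4, Fzd7, Fzd6 and Fzd9 lay between 1.34 and 2.03 CPM per kb, and each overlapped its neighbour in range. Fzd8 (1.07) was above Fzd5 (0.198) and Fzd10 (0.128) in every library. Lrp6 (4.88 CPM per kb) was above Lrp5 (0.838), and Dvl1 (14.0) above Axin1 (6.22) and Dvl3 (6.03), whose ranges overlapped. The TCF/LEF factors were low, from Tcf7 at 0.598 to Lef1 at 0.290 CPM per kb, and the ranges of Tcf7, Tcf7l1 and Tcf7l2 overlapped in turn. Sfrp1 (0.745) was the next antagonist after Dkk3.

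**Figure D1:**
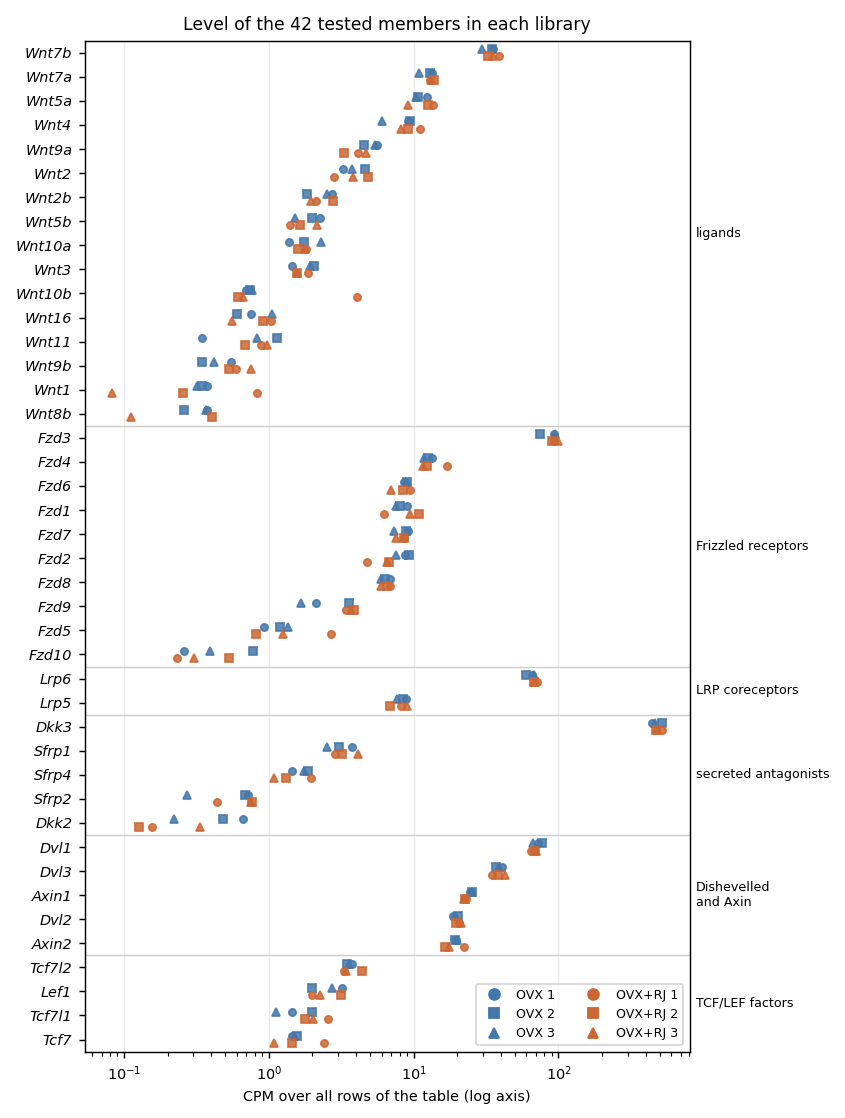
CPM of the 42 tested members in each library on a log axis, grouped by role, with OVX in blue and OVX+RJ in orange and the symbol giving the replicate number. The libraries of both diets interleave at most genes, the OVX+RJ 1 circle is far to the right at Wnt10b, and the value of 0 for Wnt8b in OVX+RJ 1 has no place on a log axis.

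Of the 46 members, 42 passed the filter on low counts and were tested. The 4 that did not were Wnt3a, Wnt6, Wnt8a and Sfrp5. Wnt3a, a ligand of the hippocampal primordium in the embryo, gave 4, 7 and 5 counts on the control diet, and 0, 0 and 3 on royal jelly. Wnt8a gave 0, 3 and 11 counts on the control diet against 0 in each OVX+RJ library, and Wnt6 had at most 2 counts in a library. For Sfrp5 the counts were 11, 3 and 0 on the control diet, and 4, 7 and 2 on royal jelly. A count of 0 in these libraries allows up to 0.0516 to 0.0864 CPM, the worth of 3 counts, and such intervals cover counting error only. Wnt3a was the one of the 4 whose groups did not overlap in CPM, lower in OVX+RJ, at 0.115, 0.120 and 0.123 CPM against 0, 0 and 0.0831 CPM. These values lie near that limit, and the other 3 genes overlapped between diets.

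Royal jelly was then compared with the control diet after ovariectomy. By edgeR's quasi-likelihood test, 0 of the 42 members had a Benjamini-Hochberg adjusted p under 0.05, and of all 18629 genes tested 0% did. The lowest adjusted p of a member was 0.986. At an unadjusted p under 0.05 there was 1 member, Fzd2, lower in OVX+RJ, where 4.05% of all tested genes stood under that p (754 genes, 1.91% lower and 2.14% higher). DESeq2 on the same counts also called 0 members, with 3 at an unadjusted p under 0.05, and limma-voom called 0, with 2. Of all tested genes, 3.7% stood under that p in DESeq2 and 4.35% in limma-voom. The groups did not overlap in CPM at 2 members, Fzd2 and Axin1, both lower in OVX+RJ, or 4.76% of the 42 against 10.5% of all tested genes (5.95% lower and 4.53% higher). Log2 fold changes were positive at 24 members and negative at 18, with a median of 0.059, where 50.4% of all tested genes were negative and the median was -0.0015. Without OVX+RJ 1 the members' median was -0.027.

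How far a difference could have gone unseen is given by the 95% intervals, limma's on log2 CPM and not adjusted for the number of genes. They lay within 1.5-fold in both directions at 20 of the 42 members and within 2-fold at 31. For the 19 members with a mean of at least 5 CPM, 17 lay within 1.5-fold, and the exceptions were Fzd2 and Wnt4. For the 16 with a mean under 2 CPM, 6 lay within 2-fold. The interval left out 0 at 2 of the 42 members, Fzd2 and Fzd9. No share over all tested genes is given for these intervals, and the unadjusted p of Fzd9 was 0.0568 in edgeR's test.

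**Figure D2:**
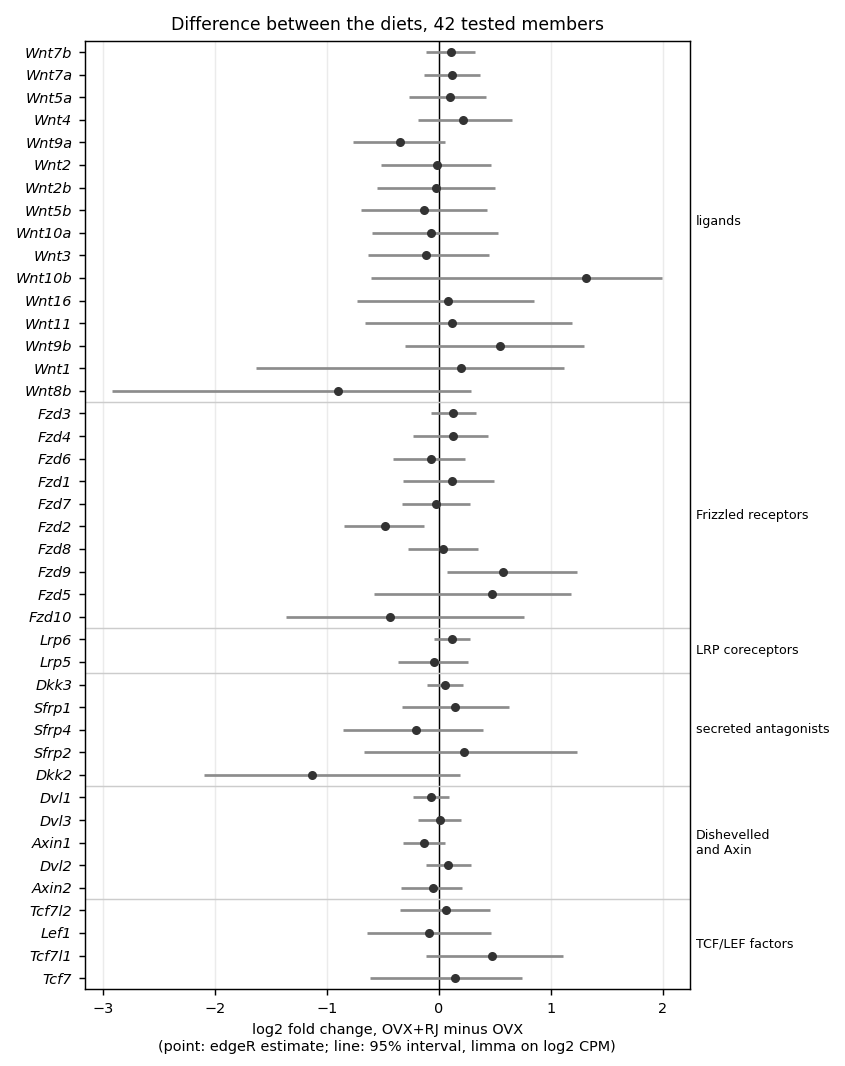
Log2 fold change of each tested member, OVX+RJ minus OVX, grouped by role and ordered by mean CPM, with edgeR's estimate as a point and limma's 95% interval on log2 CPM as a line. Intervals are narrow for abundant genes such as Dkk3 and Dvl1, wide for scarce ones such as Wnt8b, Wnt1 and Dkk2, and lie wholly on one side of 0 for Fzd2 and Fzd9.

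Among 16 tested ligands the estimate was above 0 at 9 and below 0 at 7 (median log2 fold change 0.090), and at none did the groups part. The abundant ligands overlapped between diets. Wnt7b, which signals from neural cells to brain endothelium, was 35.4, 34.5 and 29.8 CPM in OVX and 38.6, 32.5 and 35.03 CPM in OVX+RJ. The groups overlapped, and the log2 fold change was 0.10 (SE 0.0993) with an interval of -0.12 to 0.32. Wnt7a, a ligand that promotes synapse assembly in hippocampal neurons, was 13.3, 12.9 and 10.9 CPM in OVX and 12.9, 13.8 and 13.2 CPM in OVX+RJ. OVX 3 was the lowest library for both genes. The log2 fold change of Wnt7a was 0.11 (SE 0.114, interval -0.13 to 0.37).

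Wnt5a, the main ligand of beta-catenin-independent signalling, was 12.3, 10.8 and 10.5 CPM in OVX and 13.6, 12.6 and 9.20 CPM in OVX+RJ. The OVX+RJ values lay on both sides of the OVX values, with a log2 fold change of 0.10 (interval -0.27 to 0.42). Wnt3, a ligand from hippocampal astrocytes that drives the making of new granule neurons, was 1.44, 2.05 and 1.94 CPM in OVX and 1.87, 1.57 and 1.55 CPM in OVX+RJ. Its log2 fold change was -0.11, with an interval of -0.64 to 0.45. The lowest p among ligands of more than 2 CPM belonged to Wnt9a, named after its values were seen, at 5.17 ± 0.589 CPM in OVX and 4.02 ± 0.707 CPM in OVX+RJ (SD, n = 3 each). Its unadjusted p was 0.0919 in edgeR's test and its log2 fold change -0.35, with the sign kept whichever library was left out (-0.46 to -0.22). Wnt2, Wnt2b, Wnt4, Wnt5b, Wnt10a, Wnt11 and Wnt16 had log2 fold changes from -0.14 (Wnt5b) to 0.22 (Wnt4) and unadjusted p values of 0.28 or more. Wnt9b was 0.626 ± 0.11 CPM against 0.436 ± 0.103 CPM, a log2 fold change of 0.55 with an interval of -0.30 to 1.30. Wnt8b, a ligand of the embryonic medial pallium, gave 13, 15 and 15 counts on the control diet against 0, 16 and 4 on royal jelly, and its log2 fold change ran from -2.53 without OVX+RJ 2 to -0.33 without OVX+RJ 1.

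Among 10 Frizzled genes the estimate was above 0 at 6 and below 0 at 4 (median log2 fold change 0.077). Fzd2 had the lowest p of the family. It encodes a receptor used by Wnt5a and by beta-catenin-activating ligands, and it was 8.70, 9.27 and 7.56 CPM in OVX and 4.75, 6.78 and 6.60 CPM in OVX+RJ. Every OVX+RJ library was below every OVX library, and OVX+RJ 1 was the lowest. The means were 8.51 ± 0.87 and 6.04 ± 1.12 CPM (SD, n = 3 each). The log2 fold change was -0.49 (SE 0.164, interval -0.85 to -0.13), with an unadjusted p of 0.0136 and an adjusted p of 0.986 in edgeR's test. The same p was 0.00693 in DESeq2, whose adjusted p was 0.831. Without OVX+RJ 1 the log2 fold change was -0.35 at an unadjusted p of 0.0357, and leaving out OVX 2 took the unadjusted p to 0.059. Endothelial and pericyte markers were lower in the same libraries, at the summed levels given above, and their part in this value was not tested.

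Fzd9, a receptor found in hippocampal neurons and their precursors, was 2.10, 3.59 and 1.67 CPM in OVX and 3.40, 3.89 and 3.71 CPM in OVX+RJ. OVX 2 lay inside the OVX+RJ range and the other OVX libraries below it. The log2 fold change was 0.57 (SE 0.266), with an unadjusted p of 0.0568 in edgeR and 0.0463 in DESeq2. It became 0.97 without OVX 2, at an unadjusted p of 0.00233, and 0.37 without OVX 3.

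Fzd3 was 92.6, 74.0 and 95.3 CPM in OVX and 93.6, 90.5 and 99.0 CPM in OVX+RJ, with OVX 2 as the low value. Fzd4, the receptor through which Norrin and Wnt7 ligands act on brain endothelium, was 13.4, 12.7 and 11.8 CPM in OVX and 17.0, 12.3 and 11.7 CPM in OVX+RJ. OVX+RJ 1 was above the rest, and without it the log2 fold change of Fzd4 went from 0.13 to -0.075. Fzd1, which has been tied to presynaptic assembly, was 9.02, 7.99 and 7.56 CPM in OVX and 6.24, 10.8 and 9.39 CPM in OVX+RJ. Here OVX+RJ 1 was the lowest library and the other OVX+RJ libraries the highest. Its log2 fold change was 0.12 with all libraries and 0.31 without OVX+RJ 1, where the unadjusted p was 0.0453. Fzd6, Fzd7, Fzd8 and Fzd10 had log2 fold changes between -0.44 (Fzd10) and 0.036 (Fzd8), with unadjusted p values of 0.421 or more.

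Lrp6, the more abundant coreceptor, was 65.5, 59.2 and 68.1 CPM in OVX and 71.2, 68.0 and 68.0 CPM in OVX+RJ. OVX 3 lay just above the lower pair of OVX+RJ libraries, and the log2 fold change was 0.12 (SE 0.0744, interval -0.047 to 0.28). Lrp5 was 8.87, 8.39 and 7.71 CPM in OVX and 8.13, 6.88 and 8.98 CPM in OVX+RJ, a log2 fold change of -0.046.

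The antagonists were not called in either direction. Dkk3 was 443, 520 and 465 CPM in OVX and 519, 470 and 480 CPM in OVX+RJ, with the highest value of each group alike. Its log2 fold change was 0.055 (SE 0.0725) with an interval of -0.10 to 0.22. Sfrp1, which sequesters Wnts, was 3.77, 3.04 and 2.50 CPM in OVX and 2.88, 3.20 and 4.13 CPM in OVX+RJ. The groups overlapped over most of their range. Dkk2, a blocker of LRP coreceptors, had the most negative log2 fold change of the family, -1.13 (SE 0.521), but this rests on 23, 28 and 9 counts on the control diet against 6, 5 and 12 on royal jelly. Its unadjusted p was 0.0745, OVX 3 lay inside the OVX+RJ range, and the log2 fold change ran from -1.64 without OVX+RJ 3 to -0.80 without OVX 1. Sfrp2 and Sfrp4 had log2 fold changes of 0.22 and -0.20 with unadjusted p values of 0.63 and 0.502.

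Axin1, the limiting scaffold of the complex that destroys beta-catenin, was 24.4, 25.3 and 25.5 CPM in OVX and 22.9, 22.7 and 22.3 CPM in OVX+RJ. The groups did not overlap and were tight, with means of 25.0 ± 0.586 and 22.6 ± 0.293 CPM (SD, n = 3 each), but the log2 fold change was small, -0.14 (SE 0.0842). Its unadjusted p was 0.134 in edgeR's test, which borrows the spread of genes of like abundance, and the sign stayed whichever library was left out (-0.16 to -0.12). Axin2, the feedback inhibitor that beta-catenin itself induces, was 19.6, 19.4 and 20.1 CPM in OVX and 22.3, 16.6 and 17.6 CPM in OVX+RJ. OVX+RJ 1 was the highest library, while the other OVX+RJ libraries were the lowest. Its log2 fold change was -0.050 with all libraries and -0.20 without OVX+RJ 1. Dvl1, which relays the receptor signal, was 72.0, 76.7 and 66.5 CPM in OVX and 64.2, 68.7 and 70.2 CPM in OVX+RJ, and Dvl3 was 40.4, 36.9 and 38.7 against 34.8, 38.1 and 42.9 CPM. The groups overlapped at both, and at Dvl2, with log2 fold changes of -0.073, 0.0071 and 0.083 in turn.

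Lef1, a factor and a textbook target of the pathway, was 3.20, 1.98 and 2.75 CPM in OVX and 1.97, 3.12 and 2.27 CPM in OVX+RJ, with a log2 fold change of -0.085. Tcf7l2, the most abundant factor by CPM, was 3.74, 3.46 and 3.56 CPM in OVX and 3.33, 4.39 and 3.44 CPM in OVX+RJ. OVX+RJ 2 was the highest library for Tcf7l2 and among the highest for Lef1, and neither gene parted the groups. Tcf7l1, chiefly a repressor, was 1.44, 1.99 and 1.13 CPM in OVX and 2.55, 1.78 and 2.02 CPM in OVX+RJ. Its log2 fold change of 0.48 (SE 0.277) had an unadjusted p of 0.117, and without OVX 2 it was 0.74 at an unadjusted p of 0.0375. It was 0.31 without OVX 3 and without OVX+RJ 1.

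A few scarce members were high in one royal jelly library. Wnt10b was 0.691, 0.739 and 0.761 CPM in OVX, 4.08 CPM in OVX+RJ 1 (157 counts) and 0.610 and 0.665 CPM in OVX+RJ 2 and 3 (24 counts each). Its neighbour Wnt1, the founding member of the family, was 0.831 CPM in OVX+RJ 1 and between 0.0831 and 0.374 CPM in the other libraries. Fzd5, a Wnt7a receptor at hippocampal synapses, was 2.70 CPM in OVX+RJ 1 and between 0.813 and 1.35 CPM elsewhere, and Tcf7 was 2.39 CPM against 1.08 to 1.57 CPM. These 4 genes were picked after their values were seen, as the members whose highest library exceeded the next at least 1.5-fold. All 4 had OVX+RJ 1 as that library, and none of the 42 members had another library highest by that margin. They make up 9.52% of the 42 members, against 1.16% of all tested genes. OVX+RJ 1 was also the lowest library by that margin, at 1 member and at 585 of all 18629 tested genes, where it was the highest at 217. For genes with a mean under 2 CPM, OVX+RJ 1 was the highest by that margin at 4 of 16 members and at 3.38% of 4905 tested genes. With all libraries Wnt10b had an unadjusted p of 0.0632 in edgeR and 0.0264 in DESeq2, with an interval of -0.61 to 1.99. Without OVX+RJ 1 the log2 fold changes went from 1.31 to -0.20 at Wnt10b, from 0.20 to -1.01 at Wnt1, from 0.47 to -0.17 at Fzd5 and from 0.14 to -0.25 at Tcf7. In that library the marker scores (mean log2 CPM relative to all libraries) were -0.35 for leptomeningeal fibroblasts, -0.36 for choroid plexus and -0.047 for thalamus and habenula. The choroid plexus score was lower still in OVX 1, at -0.68. The part of these tissues in the high values was not tested. Other adjacent members, Wnt3 with Wnt9b, Wnt3a with Wnt9a and Wnt6 with Wnt10a, did not show OVX+RJ 1 as the highest library by that margin.

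**Figure D3:**
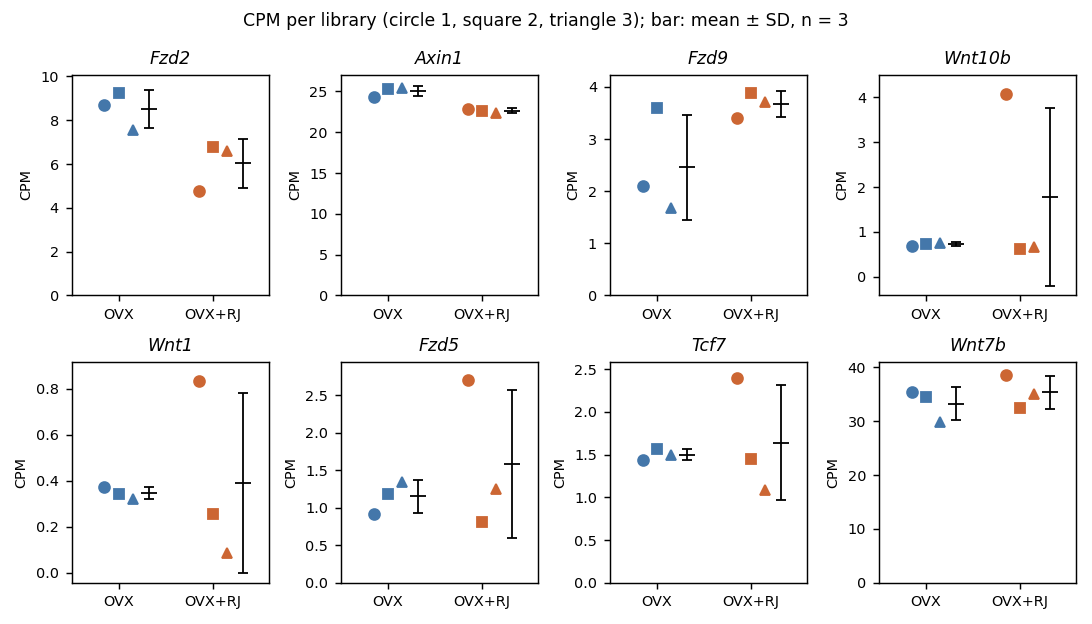
CPM of 8 members in each library, with circle, square and triangle for replicates 1, 2 and 3 and a bar for the mean ± SD of 3 libraries. Fzd2 and Axin1 part the groups, Fzd9 does so but for OVX 2, the circle of OVX+RJ 1 lifts Wnt10b, Wnt1, Fzd5 and Tcf7, and Wnt7b is shown as an abundant ligand whose groups overlap.

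OVX+RJ 1 also decided many of the signs. Leaving it out changed the sign of the log2 fold change at 12 of the 42 members, while leaving out any other library changed it at 4 to 6. Sign changes were not counted over all genes, among which OVX+RJ 1 also stood apart. Some signs turned at small values, as at Dkk3 (0.055 to -0.0013) and Fzd8 (0.036 to -0.023). Wnt10b and Wnt1 moved further, as given above. With each library left out in turn, the sign was the same in all 6 fits at 18 members. Among them were Fzd2, Fzd9, Axin1, Wnt9a, Dkk2 and Tcf7l1. Without OVX+RJ 1 the groups parted at 10 members, 3 higher and 7 lower, in a comparison of 3 against 2 libraries where 20.8% of all genes part.

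**Figure D4:**
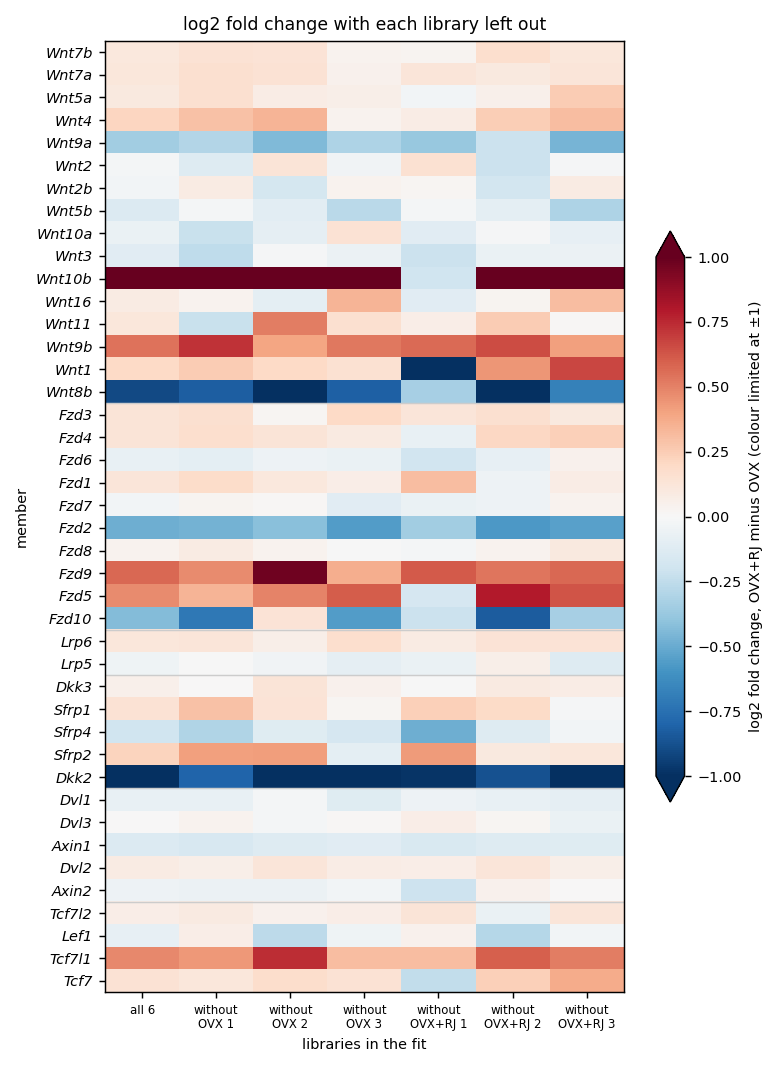
Log2 fold change of each tested member, OVX+RJ minus OVX, with all 6 libraries and with each left out in turn, in red for higher and blue for lower in OVX+RJ and with colour limited at 1 in either direction. The column without OVX+RJ 1 differs most from the first column, with Wnt10b, Wnt1, Fzd5 and Tcf7 turning blue, while Fzd2 and Dkk2 are blue and Fzd9 and Tcf7l1 red throughout.

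Of 90 further genes of the pathway, 87 were tested and 0 were called, with a median log2 fold change of 0.026. At an unadjusted p under 0.05 there were 2 higher and 1 lower, where 2.14% and 1.91% of all tested genes stand, so the share is near the background. Beta-catenin itself, Ctnnb1, was 471 ± 15.6 CPM in OVX and 475 ± 11.1 CPM in OVX+RJ (SD, n = 3 each). Lgr6, a receptor of the R-spondins, which strengthen Wnt signals by taking receptor-degrading ligases off the membrane, was 2.02, 2.01 and 2.18 CPM in OVX and 3.09, 3.23 and 2.83 CPM in OVX+RJ. Every OVX+RJ library was above every OVX library, and the log2 fold change was 0.57 (SE 0.197) with an unadjusted p of 0.0157 and an adjusted p of 0.986 in edgeR's test. It stayed between 0.53 and 0.63 whichever library was left out.

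Of the 87 genes, 7 parted the groups, or 8.05% against 10.5% of all tested genes. Lgr6, Lgr5 and Rspo1 were higher in OVX+RJ, and Tle5, Adgra2, Daam1 and Daam2 were lower. Lgr5 was 1.61, 1.15 and 1.30 CPM in OVX and 1.84, 1.85 and 1.83 CPM in OVX+RJ, a log2 fold change of 0.46 (SE 0.243) with an unadjusted p of 0.0893. Rspo1, an R-spondin, was 0.403, 0.395 and 0.319 CPM in OVX and 0.520, 0.533 and 0.610 CPM in OVX+RJ, from 13 to 23 counts a library. Its raw counts overlapped, since OVX 2 was the deepest library. The estimate was a log2 fold change of 0.58 (SE 0.361) with an unadjusted p of 0.169. The more abundant members of this group overlapped between diets: Lgr4 was 33.9 ± 1.39 CPM in OVX and 33.9 ± 0.832 CPM in OVX+RJ. Rspo2, at 22.7 ± 5.76 against 21.6 ± 5.61 CPM, and Rspo3, at 12.1 ± 1.64 against 12.9 ± 2.61 CPM, overlapped too. The ligases Znrf3 and Rnf43, which R-spondins inhibit, had log2 fold changes of 0.089 and 0.036, and Rspo4 had 5 counts in OVX 2 and 0 elsewhere. Lgr4, Rspo2, Rspo3, Rspo4, Znrf3 and Rnf43 were added to this account after the values of Lgr5, Lgr6 and Rspo1 were seen.

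**Figure D5:**
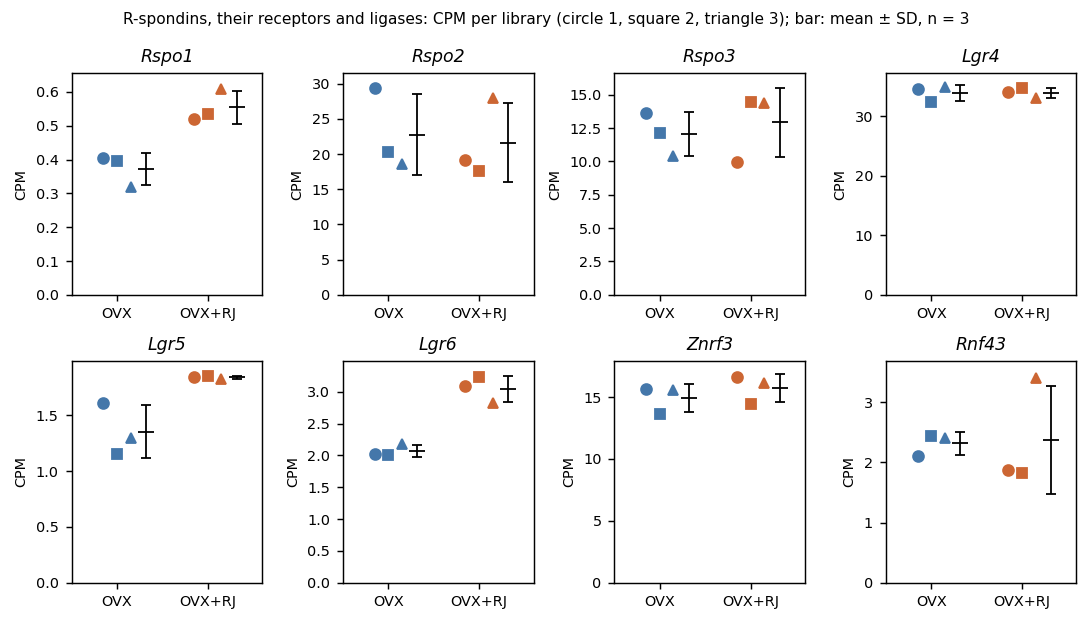
CPM in each library of 3 R-spondins, their 3 receptors and the ligases Znrf3 and Rnf43, with circle, square and triangle for replicates 1, 2 and 3 and a bar for the mean ± SD of 3 libraries. The OVX+RJ libraries lie above the OVX libraries at Rspo1, Lgr5 and Lgr6 and overlap with them in range at the other genes.

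Ror1, a receptor for Wnt5a, was 4.55, 5.59 and 6.503 CPM in OVX and 10.7, 5.66 and 7.29 CPM in OVX+RJ, with OVX+RJ 1 far above the rest. Its log2 fold change was 0.52 at an unadjusted p of 0.0482, and 0.22 at 0.283 without that library. Tle5, a short member of the Groucho family, was 262, 270 and 271 CPM in OVX and 236, 230 and 257 CPM in OVX+RJ. All OVX+RJ libraries were lower, with a log2 fold change of -0.14 (SE 0.059) and an unadjusted p of 0.0382. The lowest p in the remaining lists belonged to Gpc6, a glypican (log2 fold change -0.32, unadjusted p 0.121), to Apc of the destruction complex (0.10, 0.139) and to Daam2, a formin of the polarity branch (-0.10, 0.152). Of the 12 tested textbook target genes, Axin2 and Lef1 included, 10 had a log2 fold change above 0. Among all tested genes, 50.4% were below 0. The median of the 12 was 0.099, 0 were called and 0 had an unadjusted p under 0.05. Axin2, Lef1 and Tcf7 are members of the family, and Lgr5, Znrf3, Rnf43, Notum, Nkd1 and Apcdd1 are each also in another of the pathway lists, so the counts are not independent. The score of the target list (mean log2 CPM relative to all libraries) was highest in OVX+RJ 1, at 0.165. It was 0.051 and -0.043 in OVX+RJ 2 and 3, against 0.0028, -0.136 and -0.040 in OVX, so the groups overlapped.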

How the data were processed

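Hippocampal poly(A) RNA of 6 mice was measured. The deposited table holds the authors' expected counts per gene symbol, not scaled between libraries; HISAT2 2.2.1, StringTie 2.2.1, fastp 0.23.4, bcl2fastq 2.19 and the build GRCm39 are named, without roles, in the submitters' processing notes. Per the labels' protocols the library kit keeps strand; whether counting used it, and which annotation, is not given in the sources used here. Genes overlapping on opposite strands may therefore share counts. In GENCODE M21 this touches Axin2, Dvl1, Dvl2, Fzd5, Fzd6, Lef1, Sfrp2, Tcf7l1, Wnt5a, Wnt7b and Wnt11. Columns were matched to groups by library name. Values were rounded to whole numbers (51 features had fractions).

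CPM are over all rows of the table. Genes were kept by filterByExpr (18629 features). Groups were compared with edgeR 4.0.16 in R 4.3.3 (TMM, glmQLFit and glmQLFTest, Benjamini-Hochberg over all genes tested, threshold 0.05). Standard errors and intervals are limma's (3.58.1), computed on log2 CPM (prior count 2), so an interval need not centre on edgeR's estimate. Exon lengths are the union of GENCODE M21 exons. The test was checked on simulated counts. Alternatives were DESeq2 1.42.0, limma-voom, other scalings and filters, a block for the replicate number, robust empirical Bayes and each library left out. The members and lists were chosen with earlier results of these data known. Values per library are given for members with an unadjusted p under 0.05 or groups that do not overlap, the top 2 by CPM of each role, and Axin2, Lef1, Dkk3, Wnt3, Wnt7a, Wnt5a, Sfrp1, Fzd1 and Tcf7l2 (Dkk1, also in the rule, is not analysed here); of the other pathway lists, genes with an unadjusted p under 0.05 and the lowest p of each list are named. Fzd9, Fzd5, Tcf7, Tcf7l1, Dkk2, Wnt1, Wnt8b, Wnt9a, Wnt9b, Wnt10b, Wnt3a, Ctnnb1, Lgr5, Adgra2, Daam1, the choroid plexus genes and the other R-spondin genes were described after their values were seen. The smallest exact two-sided p of 3 against 3 is 0.1, so no such test is given. P-values weigh the difference between the diets against the spread between these libraries, which edgeR estimates in part from other genes.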

Additional observations from a re-analysis of the deposited data

How the results depend on the processing

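No member was called by DESeq2, limma-voom or robust empirical Bayes, or with DESeq2 size factors or upper quartile or library-total scaling in edgeR. The same held for a filter of 1 count or of a mean of 50 counts, the replicate block and each library left out. Dropping Lef1, Tcf7, Tcf7l1 and Tcf7l2 from the members could not add a call, since the adjustment is over all genes. Adding Frzb and Wif1 could not either, at adjusted p values of 0.987 and 0.986 in edgeR's main fit. Over all genes DESeq2 called 10 higher and 3 lower, robust empirical Bayes 2 and 1, and the replicate block 1 and 0, against 0 and 0; leaving out a library gave 0 to 7 higher and 0 to 1 lower. Members at an unadjusted p under 0.05 numbered 2 higher in DESeq2, 1 in limma-voom and 1 with the replicate block, against 0. Of all genes tested, 3.7%, 4.35% and 3.58% stood under that p in turn, in either direction. With every gene of at least 1 count tested, 2 members were lower at that p, against 1, and 3.42% of all genes stood under it. In that run 3 rather than 2 members parted the groups downwards, because Wnt3a was then tested, where 8.14% of all genes parted. Leaving out a library gave 0 to 2 members higher and 0 to 2 lower at an unadjusted p under 0.05. Of all genes, 3.26% to 5.88% stood under that p in these fits. Members parting the groups numbered 1 to 4 upwards and 3 to 7 downwards, where 18.8% to 22.2% of all genes parted. Parting is easier with fewer libraries. The members' medians were -0.027 to 0.069, the lowest without OVX+RJ 1. Whether the replicate numbers mark pairs is not given in the labels. Same-numbered libraries had correlations of deviations of 0.046, -0.0024 and 0.0031, and not every library correlated best with its own number. Such small correlations, from 3 libraries a group, cannot decide this. Depth limits the 16 members with a mean under 2 CPM, of which 6 had an interval within 2-fold.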
